A study of Homo sapiens with 24 samples.

Results

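Long intergenic noncoding RNA genes, written LINC and a number, were followed in 24 RNA-seq libraries of MB468 and MB468res-R8 cells. A gene entered when its symbol was LINC followed only by digits and its mean over all libraries was at least 0.5 CPM, the count of a gene scaled to a common library total without spike-ins. They were thus chosen by their mean level alone. This left 150 of 904 LINC-numbered entries, out of 26645 gene entries in all, and 558 of the 904 had any count. The rule used the mean over both lines and all times together, so a gene that is high in 1 group alone can enter. When each gene's highest group was left out, 4 fell under 0.5 CPM. That group was MB468 at 12 h for LINC00624, MB468res-R8 at 12 h for LINC00702, and MB468 at 2 h for LINC01001 and LINC01605. Without these 4, 71 LINC genes rather than 72 were called between the lines at 0 h, and 80 rather than 82 in MB468 and 83 rather than 86 in MB468res-R8 at 12 h.

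MB468 (MDA-MB-468) is a triple-negative breast cancer line that needs Met to proliferate, and MB468res-R8 is 1 clone derived from it by long culture in Hcy medium, in which it proliferates. Both lines were sampled in Met+ medium with 100 µM L-methionine (0 h), and at 0.5, 2, and 12 h after transfer to Met-Hcy+ medium, in which 370 µM DL-homocysteine replaced Met. Each of the 8 groups has 3 libraries of poly(A)-selected RNA, so transcripts without a poly(A) tail are measured at most in part. No library is from cells moved to fresh Met+ medium, so changes at 0.5, 2, and 12 h cannot be told apart from those of the medium change itself or of time in culture.

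LINC numbers are placeholders, given to long noncoding genes that lie between other genes and have no functional name. Such RNAs are spliced and polyadenylated like mRNA, but are usually less abundant, and many are restricted to few cell types or stay in the nucleus. Some act as decoys for proteins, some act on neighbouring genes, and others were later found to encode small proteins, after which they were renamed. All 150 matched a RefSeq gene (GRCh38.p14), 129 by gene ID and 21 by symbol or synonym. Gene coordinates given here are from that annotation. Of these, 37 have since been renamed, 14 are now listed as protein-coding, and 1, LINC01296, is listed as the pseudogene DUXAP9.

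Library totals ran from 11713037 to 36402932 counts, with a median of 20452797, and spike-ins held 0.201 to 0.303% of counts. The epithelial genes EPCAM and KRT5 averaged 334 and 2085 CPM, and EGFR averaged 3008. Of the receptor genes that define triple-negative cells, PGR was at 0 in 18 libraries, ESR1 ran from 4.07 to 22.1 CPM, and ERBB2 from 37.6 to 94.9. Of fibroblast genes, COL1A1 averaged 39.5 CPM, whereas COL1A2 was at 0 in 22 libraries and PDGFRB and DCN averaged 0.326 and 0.0300 CPM. One library, MB468 at 2 h replicate 2, held 8251 counts of RN7SK against 44 to 357 in the others, and without it 13 rather than 14 LINC genes were called at 2 h in MB468. The 3 libraries of a group are taken as its replicates, and p-values measure only the spread between them. The kit does not keep strand, so reads of overlapping genes on opposite strands cannot be told apart, and 13 of the 150 overlap the span of their nearest protein-coding gene.

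The LINC genes together held little of the RNA, and their share was lowest in MB468res-R8 at 12 h. The 150 genes took 0.132 ± 0.00178% of counts (SD, n = 3) in MB468 at 0 h, 0.121 ± 0.000726% at 0.5 h, 0.128 ± 0.00184% at 2 h, and 0.131 ± 0.000847% at 12 h. In MB468res-R8 the shares were 0.136 ± 0.00164, 0.119 ± 0.000712, 0.138 ± 0.00262, and 0.103 ± 0.000334%. Each of the 3 libraries of MB468res-R8 at 12 h was at 0.103%, under every other library of either line.

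**Figure D1:**
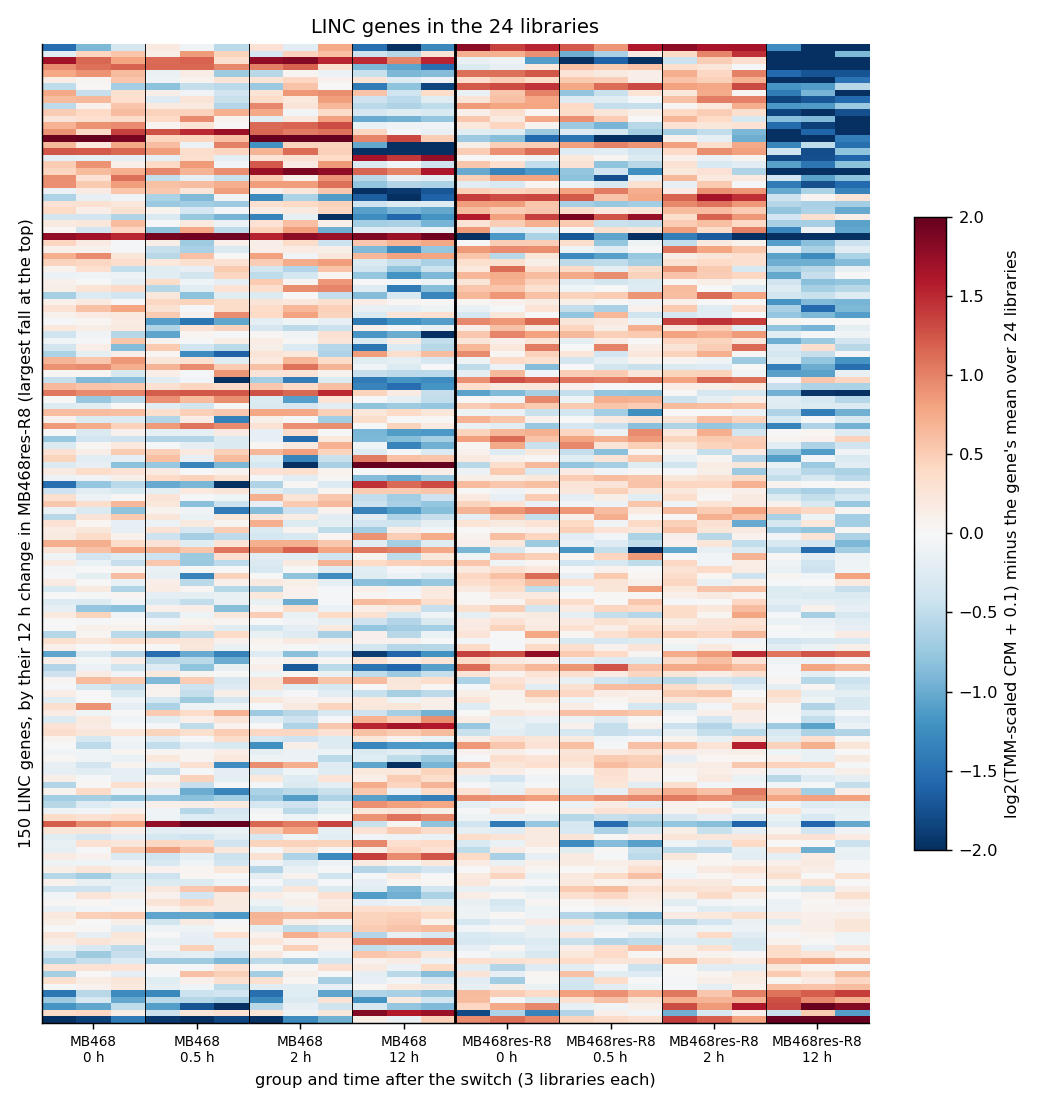
Each row is 1 of the 150 LINC genes and each column 1 of the 24 libraries, with colour for log2(TMM-scaled CPM + 0.1) minus the gene's own mean, rows ordered by the 12 h change in MB468res-R8. Blue fills most of the 3 right-hand columns, where 125 of the 150 genes have a negative log2 fold change from 0 h.

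Values below are TMM-scaled CPM, in which counts are divided by the library size after edgeR's TMM scaling. LINC00657 (NORAD), which binds Pumilio proteins and guards chromosome number, had the highest mean, 204 CPM. It was followed by LINC00673 (83.2), LINC01278 (74.8), LINC00674 (68.9), LINC00665 (59.5), LINC01420 (39.4), LINC00998 (34.2), and LINC01133 (32.3). Only 26 of the 150 averaged at least 10 CPM, and 116 at least 1. Per kilobase of the RefSeq transcript the order changes: LINC00665 and LINC01278 stood at 60.9 and 52.8 CPM per kilobase, above NORAD at 37.7, whose transcript is 5401 bases long. LINC00674 has an annotated transcript of 160 bases, which gives 431 CPM per kilobase, and no length was listed for LINC00673. Just inside the threshold were LINC01605 (0.500), LINC01001 (0.540), and LINC00702 (0.558), and just outside it LINC00160 (0.491), LINC01140 (0.478), and LINC00324 (0.448). At least 0.5 CPM was reached in both lines by 135 genes, in MB468 only by 6, and in MB468res-R8 only by 9.

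The first comparison is between the lines before the switch. In MB468res-R8 45 LINC genes were higher and 27 lower than in MB468 at 0 h, by edgeR's quasi-likelihood test at an adjusted p under 0.05, but with libraries scaled to their spike-ins 20 were higher and 38 lower, so the balance of directions depends on the scaling. That scaling moved the median of all genes by -0.31 (log2). The 72 called are 48% of the LINC genes, against 53.5% of the 14741 genes tested. At least 2-fold differences were called for 29 of them (19.3%), against 9.62% of all genes, which were not matched for level. With spike-in scaling 15% of the calls over all genes were higher, against 34.5% of those over the LINC genes. The 8 largest differences in each direction, among genes of at least 1 CPM in the higher line, kept their direction and call with either scaling. LINC00702 (log2 2.12, adjusted p = 1.94e-04) and LINC00115 (-1.85, adjusted p = 3.98e-04) differed by as much as some of these at lower levels.

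LINC00707, an RNA studied in several epithelial cancers (chr10:6779598-6842906), differed most upward. Its libraries held 0.0394, 0.245, and 0.370 CPM in MB468 and 2.33, 2.60, and 2.36 in MB468res-R8, a log2 fold change of 3.56 (SE 0.33, adjusted p = 4.60e-12). The lines did not overlap at any of the 4 times. LINC00675 (TMEM238L), listed as coding for a small membrane protein, stood at 0.0789, 0.175, and 0.309 CPM in MB468 and at 1.67, 1.23, and 1.38 in MB468res-R8 (log2 3.01, SE 0.46, adjusted p = 4.81e-07). LINC00704 (MANCR), a mitosis-associated RNA of aggressive breast cancer, rested on 1.33 ± 0.368 against 5.96 ± 1.17 CPM (SD, n = 3; log2 2.15, adjusted p = 9.46e-11). LINC00887, LINC00525, LINC01151, LINC01010, and LINC01356 were also higher, with log2 fold changes from 1.69 to 1.93, each from at most 1.38 CPM in any MB468 library at 0 h.

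In the other direction LINC00536 (chr8:115950511-116325059) held 7.73, 7.25, and 6.42 CPM in MB468 and 0.488, 0.934, and 1.38 in MB468res-R8, a log2 fold change of -3.03 (SE 0.22, adjusted p = 3.33e-15). It has 14 exons and lies 281536 bases from TRPS1. Its level ran from 6.42 to 8.79 CPM over the 12 MB468 libraries and was at most 1.38 in those of MB468res-R8, where it fell further at 12 h (log2 -1.27, adjusted p = 0.0017). LINC01198 held 3.04, 3.40, and 2.90 CPM in MB468 and 0.383, 0.344, and 0.172 in MB468res-R8 (log2 -3.30, SE 0.38, adjusted p = 9.58e-10). LINC01152, LINC00310, LINC00479, LINC00689, LINC01270, and LINC00968 had log2 fold changes from -1.95 to -1.36. Among the abundant genes the differences were smaller: LINC01133 was higher (27.6 ± 2.95 against 45.1 ± 2.04 CPM, log2 0.72, adjusted p = 9.84e-12), and LINC00657 was lower (248 ± 9.03 against 201 ± 8.69, log2 -0.30, adjusted p = 2.21e-07).

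**Figure D2:**
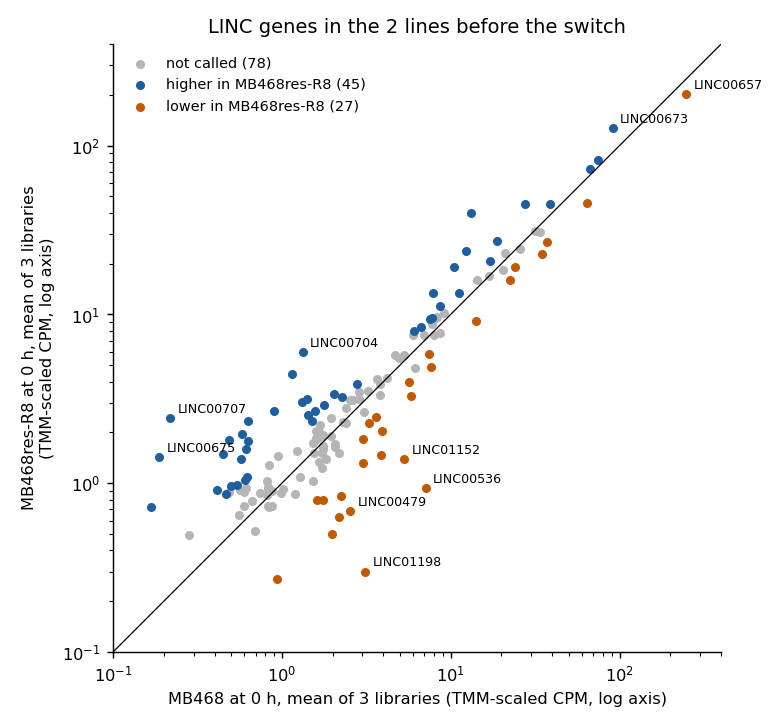
Each point is a LINC gene, with its mean of 3 libraries at 0 h in MB468 on the horizontal log axis and in MB468res-R8 on the vertical one, in TMM-scaled CPM; the line marks equal levels. LINC00707 and LINC00675 lie farthest above the line and LINC01198 and LINC00536 farthest below it, and the 45 higher and 27 lower calls become 20 and 38 with spike-in scaling.

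Cells at 0.5 h after the transfer were then compared with those at 0 h in each line. In MB468 11 LINC genes were higher and 23 lower at 0.5 h than at 0 h, 22.7% called against 33.9% of all genes. In MB468res-R8 9 were higher and 27 lower, 24% against 33.7%. Of all genes 17.6% were higher and 16.4% lower in MB468, and 17.4% and 16.3% in MB468res-R8. At least 2-fold changes were called for 6 LINC genes in MB468 (4% against 3.41%) and 11 in MB468res-R8 (7.33% against 3.58%). With spike-in scaling the calls were 3 higher and 26 lower in MB468, and 3 higher and 15 lower in MB468res-R8. Of the calls with that scaling 10.3% of the LINC genes' and 14.0% of all genes' were higher in MB468, and 16.7% and 59.0% in MB468res-R8. No library is shared by these comparisons: 17 LINC genes were lower in both lines (11.3%, against 10.9% of all genes), 6 higher in both (4%, against 12.5%), and 0 were called in opposite directions, against 17 and 8 of all genes for the rise in MB468 with a fall in MB468res-R8 and the reverse. Over the 150 genes the log2 fold changes of the lines were correlated with r = 0.526 (Pearson) and rho = 0.528 (Spearman), against r = 0.629 over all genes; genes are not independent replicates.

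The genes lower in both lines at 0.5 h included LINC00673, LINC00152, LINC00346, LINC01198, LINC00176, and LINC00284. For LINC01198 the libraries of MB468res-R8 overlapped between 0 and 0.5 h (log2 -1.68, SE 0.66, adjusted p = 0.045). LINC00673, studied in pancreatic and breast cancer and lying near SLC39A11 (chr17:72403322-72592804), was lower in every library at 0.5 h. In MB468 it held 92.4, 93.6, and 87.6 CPM at 0 h and 45.3, 46.6, and 45.9 at 0.5 h (log2 -0.99, SE 0.06, adjusted p = 2.90e-15). MB468res-R8 started from 135.0, 135, and 111 CPM and fell to 47.9, 44.7, and 46.7 (log2 -1.45, SE 0.06, adjusted p = 2.25e-20), a level that overlaps that of MB468. The fall was larger in MB468res-R8, by 0.46 on the log2 scale (adjusted p = 0.00114 for the difference), but with spike-in scaling the difference was -0.20 and was not called.

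LINC00152 (CYTOR, cytoskeleton regulator RNA; chr2:87455427-87521518) changed more in MB468. It went from 32.2, 38.9, and 40.0 CPM to 13.4, 13.5, and 12.5 there (log2 -1.48, SE 0.08, adjusted p = 8.29e-19), and from 26.1, 28.6, and 26.1 to 18.5, 16.9, and 15.2 in MB468res-R8 (log2 -0.67, SE 0.08, adjusted p = 3.48e-09). The difference between the lines was 0.81 (SE 0.11, adjusted p = 3.34e-06) and was called with spike-in scaling too. CYTOR has a near-identical copy, MIR4435-2HG, and reads may be split between them. That gene had log2 fold changes of -1.07 in MB468 and -0.71 in MB468res-R8, with a called difference of 0.35 (adjusted p = 0.0151).

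LINC00346 (PRECSIT), an RNA of squamous carcinoma named for its activation of STAT3 (chr13:110863987-110870308), held 11.5, 12.2, and 13.3 CPM in MB468 and fell to 5.49, 4.32, and 5.75 (log2 -1.25, SE 0.11, adjusted p = 6.73e-12). In MB468res-R8 its 23.2, 21.9, and 26.6 CPM became 14.1, 13.7, and 11.1 (log2 -0.88, SE 0.10, adjusted p = 6.46e-10). LINC00284 (NRAD1), an RNA of triple-negative breast cancer (chr13:44022335-44030463), went from 6.11, 6.69, and 5.50 to 3.202, 3.93, and 2.11 CPM in MB468 and from 7.70, 7.67, and 8.504 to 4.29, 3.99, and 3.89 in MB468res-R8. Its log2 fold changes were -0.95 and -0.96 (adjusted p = 2.87e-05 and 9.57e-06), and the difference between them, -0.02 (SE 0.25), was not called. LINC00704, LINC01132, LINC00265, LINC00665, and LINC00963 were among the other genes lower in both.

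Promoters of 4 of these genes are printed, because each of the 4 was lower in both lines at 0.5 h. Each is 300 bases from RefSeq (GRCh38.p14), 250 before the annotated start site, 5′ to 3′ on the gene's strand, with matches to the AP-1 motif TGANTCA on either strand in capitals. They are chr17:72592755-72593054 (minus strand) for LINC00673, chr2:87455177-87455476 (plus) for LINC00152, chr13:110870259-110870558 (minus) for LINC00346, and chr13:44022085-44022384 (plus) for LINC00284.
LINC00673: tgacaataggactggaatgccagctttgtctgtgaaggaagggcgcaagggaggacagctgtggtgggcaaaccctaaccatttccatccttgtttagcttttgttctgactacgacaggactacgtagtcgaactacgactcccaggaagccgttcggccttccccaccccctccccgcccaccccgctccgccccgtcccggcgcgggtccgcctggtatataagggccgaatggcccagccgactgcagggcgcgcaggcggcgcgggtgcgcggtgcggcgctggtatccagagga
LINC00152: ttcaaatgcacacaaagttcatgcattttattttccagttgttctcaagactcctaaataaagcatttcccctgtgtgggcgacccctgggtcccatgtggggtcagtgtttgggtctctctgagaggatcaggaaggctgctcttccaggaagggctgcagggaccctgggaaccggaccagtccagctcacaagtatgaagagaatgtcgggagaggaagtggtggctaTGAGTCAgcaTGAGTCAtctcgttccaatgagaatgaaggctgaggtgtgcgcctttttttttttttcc
LINC00346: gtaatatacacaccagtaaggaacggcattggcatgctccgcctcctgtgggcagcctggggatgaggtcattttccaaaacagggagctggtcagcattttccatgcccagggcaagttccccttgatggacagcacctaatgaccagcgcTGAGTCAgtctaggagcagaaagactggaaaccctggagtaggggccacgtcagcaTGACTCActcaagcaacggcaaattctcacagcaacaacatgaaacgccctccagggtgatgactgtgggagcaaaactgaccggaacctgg
LINC00284: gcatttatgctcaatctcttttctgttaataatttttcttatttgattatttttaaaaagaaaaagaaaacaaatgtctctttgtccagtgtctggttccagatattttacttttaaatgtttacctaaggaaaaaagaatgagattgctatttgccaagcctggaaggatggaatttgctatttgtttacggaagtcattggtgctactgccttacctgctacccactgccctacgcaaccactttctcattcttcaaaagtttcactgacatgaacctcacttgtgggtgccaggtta
LINC00152 holds 2 matches, starting 19 and 9 bases before the start site, and LINC00346 holds 2, at 98 and 42 bases before it, whereas neither LINC00673 nor LINC00284 holds the motif. Of the 17 genes lower in both lines, 14 have a promoter in the table and 5 of these (35.7%) hold a match, against 18 of 115 LINC promoters (15.7%), 7.71% of 35116 promoters of all genes, and 4.94% of the 10749 promoters of tested genes. Among LINC genes higher in both lines at 0.5 h 1 of 4 promoters (25%) held a match, among those lower in both at 12 h 7 of 31 (22.6%), and among those higher in both at 12 h 0 of 4. Of the other motifs searched on both strands, CRE (TGACGTCA) was in 1.74% of LINC, 1.85% of all, and 3.09% of tested-gene promoters. The E-box CACGTG was in 7.83%, 7.26%, and 9.79%. The C/EBP-ATF motif TGATGNAA was in 4.35% (5 LINC promoters), 3.62%, and 1.74%. A match describes these letters only, and no binding was measured.

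Fewer LINC genes rose at 0.5 h. LINC01139 rose from 3.47, 3.50, and 4.08 CPM to 5.52, 6.83, and 7.61 in MB468 (log2 0.84, SE 0.16, adjusted p = 6.99e-05) and from 4.22, 4.18, and 3.96 to 6.75, 7.29, and 5.88 in MB468res-R8 (log2 0.69, SE 0.16, adjusted p = 7.13e-04). LINC00649, LINC00847, LINC00641, LINC00339, and LINC00998 (SMIM30, which codes for a small membrane protein) were also higher in both, with log2 fold changes from 0.24 to 0.51. With spike-in scaling LINC00649 was called in neither line, LINC00847 not in MB468, and LINC00641 not in MB468res-R8. The call of LINC00847 in MB468res-R8 was lost without 0 h replicate 1 (log2 0.37), and that of LINC00641 without 0 h replicate 3 or 0.5 h replicate 2 (0.30 and 0.28).

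Besides LINC00152 and LINC00673, the response at 0.5 h differed between the lines for LINC00472, LINC00662, and LINC00689, 5 genes or 3.33% against 2.90% of all genes. Only LINC00152 was on the higher side (0.667% against 1.20%), and the other 4 were lower in MB468res-R8 (2.67% against 1.70%). LINC00472, whose high level marks a better outcome in breast cancer, was at 21.0, 20.5, and 19.6 CPM in MB468 at 0 h and 17.9, 19.2, and 19.02 at 0.5 h (log2 -0.13, not called). In MB468res-R8 it dropped from 19.2, 19.3, and 16.7 to 10.6, 10.8, and 9.71 (log2 -0.83, SE 0.09, adjusted p = 1.75e-09), and the difference was -0.70 (SE 0.13, adjusted p = 4.72e-04; -0.43 and not called with spike-in scaling). The differences of LINC00662 (-0.36) and LINC00689 (-2.20) were each lost without any of 8 single libraries, at values of -0.36 to -0.30 and -2.24 to -1.70.

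At 2 h fewer LINC genes were called. In MB468 8 LINC genes were higher and 6 lower than at 0 h, 9.33% against 16.3% of all genes. In MB468res-R8 4 were higher and 0 lower, 2.67% against 4.37%. Of all genes 8.88% were higher and 7.47% lower in MB468, and 2.52% and 1.85% in MB468res-R8. At an unadjusted p under 0.05, 25 LINC genes passed in MB468 and 12 in MB468res-R8. A share of about 0.05 of unchanged genes passes that threshold by chance. No share over all genes is given for it, so these numbers do not show further responses. At least 2-fold changes were called for 3 LINC genes in MB468 (2% against 1.70%) and 1 in MB468res-R8 (0.667% against 0.387%). Spike-in scaling, which moved the median of all genes by -0.42 in MB468, gave 2 higher and 52 lower in MB468 and 1 higher in MB468res-R8. Leaving out MB468 0 h replicate 1 gave 9 calls in place of 14, and leaving out MB468res-R8 0 h replicate 3 gave 2 in place of 4. With that scaling 2.52% of the calls over all genes were higher in MB468, against 3.70% of those over the LINC genes. LINC00673 stood at 94.8, 99.9, and 104 CPM in MB468 (log2 0.13 from 0 h, adjusted p = 0.178; -0.30 and called with spike-in scaling, adjusted p = 0.0382) and at 147, 160.4, and 139 in MB468res-R8 (log2 0.23, adjusted p = 0.0113).

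LINC00346 held 10.4, 11.2, and 10.6 CPM in MB468, each below every library at 0 h (log2 -0.20, adjusted p = 0.215, and -0.63 with spike-in scaling, adjusted p = 8.35e-04). It passed its 0 h level in MB468res-R8, with 30.9, 33.1, and 31.1 (log2 0.41, SE 0.09, adjusted p = 0.00193), a called difference of 0.62 (SE 0.14, adjusted p = 0.00301). With spike-in scaling the rise in MB468res-R8 was 0.36 and was not called. The only other called difference at 2 h was that of LINC01089 (-0.99, adjusted p = 0.0288), lost without any of 6 single libraries (-0.998 to -0.769), and the 2 genes are 1.33% against 5.07% of all genes. LINC00152 was above 0 h, with 44.8, 44.1, and 44.7 CPM in MB468 (log2 0.27, adjusted p = 0.00541) and 31.3, 32.5, and 35.1 in MB468res-R8 (0.29, adjusted p = 0.0111), but in MB468 spike-in scaling turned this to -0.15 and the call was lost without 0 h replicate 1 (0.18). In MB468res-R8 the calls were lost for LINC00152 without 0 h replicate 1 or 3 or 2 h replicate 3 (0.24 to 0.27), and for LINC00673 without 0 h replicate 3 or 2 h replicate 2 (0.14 and 0.16). Their spike-in values, 0.24 and 0.19, were not called.

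LINC00479 rose at 2 h in both lines from unequal levels. It held 2.25, 2.59, and 2.78 CPM in MB468 at 0 h and 5.66, 6.32, and 5.83 at 2 h (log2 1.23, SE 0.21, adjusted p = 2.22e-05). In MB468res-R8 0.767, 0.590, and 0.690 became 1.92, 2.02, and 1.05 (log2 1.31, SE 0.27, adjusted p = 0.00135). LINC00641 and LINC01447 were higher in MB468 (log2 0.56 and 0.53), though neither was called with spike-in scaling. LINC00284 was still low in MB468 at 2 h, with 2.36, 3.67, and 3.25 CPM (log2 -1.01, SE 0.18, adjusted p = 6.05e-05), and in MB468res-R8 stood at 5.90, 4.75, and 7.21 (-0.44, adjusted p = 0.132), with a difference of 0.56 (SE 0.24) that was not called. LINC01128, LINC00847, and LINC00657 were lower in MB468, NORAD at -0.18 (log2, adjusted p = 0.00306), and LINC00847 lost its call without 2 h replicate 1 (-0.44).

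The promoter of LINC00479 (chr21:41715726-41716025, minus strand, printed as above) is shown beside this rise and holds no AP-1 match.
LINC00479: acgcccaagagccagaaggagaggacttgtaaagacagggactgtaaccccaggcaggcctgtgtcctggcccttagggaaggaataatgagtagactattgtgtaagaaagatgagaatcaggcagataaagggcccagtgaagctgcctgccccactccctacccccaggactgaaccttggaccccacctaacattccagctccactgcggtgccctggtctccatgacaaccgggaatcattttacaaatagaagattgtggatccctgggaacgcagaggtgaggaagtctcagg

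**Figure D3:**
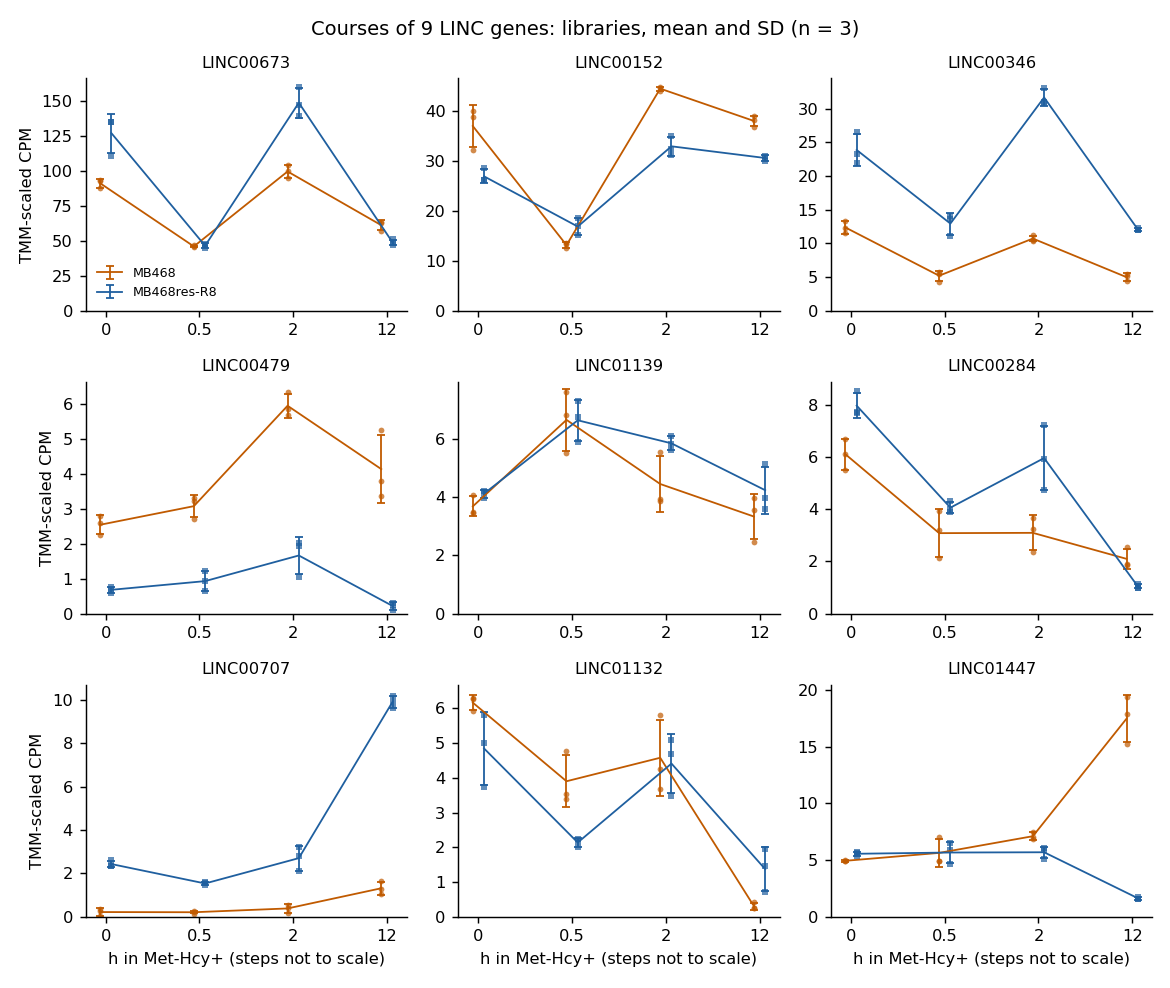
Each panel follows 1 LINC gene through 0, 0.5, 2, and 12 h in Met-Hcy+ medium, with MB468 in orange and MB468res-R8 in blue, points for libraries, and lines with bars for mean and SD (n = 3), in TMM-scaled CPM. LINC00673, LINC00152, and LINC00346 dip at 0.5 h and are higher again at 2 h in both lines, with LINC00346 in MB468 still below each of its 0 h libraries, whereas LINC00707 and LINC01447 change mainly at 12 h.

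By 12 h the LINC genes had fallen more often than they had risen in both lines. In MB468 25 were higher and 57 lower (16.7% and 38%), against 36.1% and 34.7% of all genes; 54.7% were called, against 70.8%. At least 2-fold, 8 rose and 29 fell, 24.7% against 15.9%. In MB468res-R8 13 were higher and 73 lower (8.67% and 48.7%), against 30.2% and 31.1% of all genes; 57.3% were called, against 61.3%, and 3 rose and 42 fell at least 2-fold, 30% against 9.82% of all genes. The medians over the 150 genes were -0.27 and -0.50 (log2), against 0.01 and -0.02 over all genes. Spike-in scaling, which moved the median of all genes by -0.23 in MB468 and 0.00 in MB468res-R8, gave 14 higher and 67 lower in MB468 and 10 higher and 63 lower in MB468res-R8. Of those calls 17.3% and 13.7% were higher, against 30.0% and 47.0% of the calls over all genes. Leaving out single libraries gave 64 to 72 lower in MB468res-R8 and 52 to 59 in MB468. Among the 26 genes with at least 10 CPM, 5 were higher and 14 lower in MB468res-R8, and 8 and 12 in MB468. Neither directions nor 2-fold changes were counted for all genes of the same level.

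**Figure D4:**
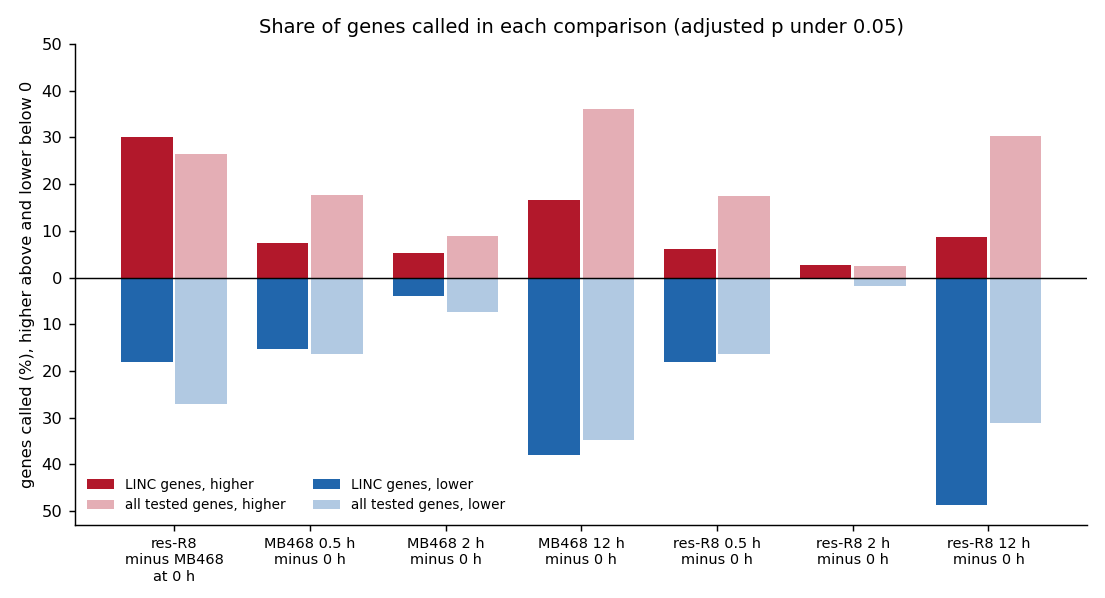
Bars give the percent of the 150 LINC genes (dark) and of the 14741 tested genes (pale) called higher (upward, red) or lower (downward, blue) in each comparison, at an adjusted p under 0.05. In MB468res-R8 at 12 h 48.7% of LINC genes were lower and 8.67% higher, against 31.1% and 30.2% of all genes; at 0 h the 45 higher and 27 lower become 20 and 38 with spike-in scaling.

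LINC00624 rose most in MB468 at 12 h. It stood at 0.315, 0.350, and 0.185 CPM at 0 h and at 5.10, 4.74, and 5.10 at 12 h (log2 4.05, SE 0.34, adjusted p = 6.41e-14), with no other MB468 library above 0.350. It averaged 0.290 CPM over the other 7 groups and so passed the threshold of 0.5 CPM only through MB468 at 12 h. In MB468res-R8 it held 0.244, 0.541, and 0.690 CPM at 0 h and 0.354, 0.200, and 0.332 at 12 h (log2 -0.62, adjusted p = 0.221), and the difference was -4.67 (SE 0.56, adjusted p = 3.13e-09). It lies on chr1:147382192-147517875, 23626 bases from BCL9 and in a region of chromosome 1 with repeated segments, so its reads may be shared with copies.

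LINC01447, near TNS3 on chr7:47621939-47629893, went opposite ways. Its 4.93, 5.01, and 4.88 CPM in MB468 became 17.9, 15.2, and 19.4 (log2 1.83, SE 0.13, adjusted p = 2.75e-16), while 5.68, 5.65, and 5.34 in MB468res-R8 became 1.53, 1.601, and 1.78 (log2 -1.76, SE 0.16, adjusted p = 3.23e-12). The lines overlapped at 0.5 h and did not at 0, 2, and 12 h, and the 12 h difference was -3.59 (SE 0.21, adjusted p = 3.79e-18). LINC00479, LINC00339, LINC01023, and LINC01279 also rose in MB468 and fell in MB468res-R8 at 12 h, which with LINC01447 makes 5 LINC genes or 3.33% against 5.58% of all genes, and 0 LINC genes did the reverse, against 5.99% of all genes.

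LINC01279 held 0.552, 0.980, and 1.17 CPM in MB468 at 0 h and 4.94, 3.98, and 4.48 at 12 h (log2 2.35, SE 0.24, adjusted p = 2.36e-11), and 2.79, 2.60, and 2.70 then 1.85, 1.75, and 1.78 in MB468res-R8 (log2 -0.59, adjusted p = 0.0256). RefSeq now places this symbol within CCDC80, a gene for a secreted matrix protein that has its own entry in the table. CCDC80 changed by 2.65 in MB468 and -0.27 in MB468res-R8, a difference of -2.92 against -2.93 for LINC01279, so the pair moved alike and reads of 1 may be counted for the other.

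LINC00707 was 1 of 6 genes that rose in both lines at 12 h. In MB468 it reached 1.26, 1.04, and 1.64 CPM (log2 2.70, SE 0.35, adjusted p = 6.94e-09) and in MB468res-R8 9.63, 9.91, and 10.2 (log2 2.03, SE 0.20, adjusted p = 2.78e-11). The difference between these responses was -0.68 (SE 0.42, adjusted p = 0.177), which was not called. The other 5 were LINC00115, LINC00641, LINC00665, LINC00094, and LINC00997. LINC00665, studied in epithelial cancers, rose from 62.6, 67.0, and 64.2 CPM to 107, 109, and 111 in MB468 (log2 0.75, SE 0.05, adjusted p = 4.02e-17) and from 44.7, 45.5, and 46.4 to 60.0, 57.0, and 53.0 in MB468res-R8 (log2 0.32, adjusted p = 1.74e-06), a smaller rise by 0.43 (adjusted p = 1.97e-06).

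In MB468 LINC00174, LINC00115, LINC00449, and LINC01232 also rose, by 1.49, 1.48, 1.24, and 1.19 on the log2 scale. LINC00449 and LINC01232 are neighbours on chromosome 13, 416 bases apart on the same strand. In MB468res-R8 LINC00115 rose by 1.23 (adjusted p = 0.0203), from 0.139, 0.442, and 0.230 CPM to 0.511, 1.10, and 0.290, which overlap, and lost its call without 0 h replicate 1 or 3 or 12 h replicate 2 (0.62 to 1.16). LINC00702, LINC01399, LINC01356, LINC01296, LINC00630, LINC00680, and LINC00997 changed by 0.42 to 1.14. Of these, LINC01399 lost its call without any of 3 single libraries (0.69 to 0.76), LINC00630 without any of 4 (0.32 to 0.55), LINC01356 without 12 h replicate 3 (0.68), and LINC00680 without 0 h replicate 2 (0.32). LINC00702 averaged 0.418 CPM over the other groups and passed the threshold of 0.5 CPM only through MB468res-R8 at 12 h.

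The largest fall in MB468 was that of LINC01132 (chr1:234724042-234731643), from 6.31, 6.27, and 5.93 CPM to 0.242, 0.427, and 0.251 (log2 -4.39, SE 0.28, adjusted p = 1.01e-16). In MB468res-R8 3.73, 5.01, and 5.80 became 1.97, 0.701, and 1.45 (log2 -1.77, SE 0.23, adjusted p = 2.95e-08), and the falls differed by 2.63 (SE 0.39, adjusted p = 3.65e-07). Its promoter (chr1:234723792-234724091, plus strand, printed as above because this gene fell at 0.5 h in both lines and again at 12 h) holds 1 AP-1 match, 79 bases before the start site.
LINC01132: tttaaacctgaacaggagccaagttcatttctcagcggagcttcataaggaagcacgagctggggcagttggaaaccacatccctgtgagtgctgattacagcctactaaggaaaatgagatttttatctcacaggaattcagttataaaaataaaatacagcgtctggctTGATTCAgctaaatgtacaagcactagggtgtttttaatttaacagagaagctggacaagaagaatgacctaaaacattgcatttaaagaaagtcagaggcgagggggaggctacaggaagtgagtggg

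LINC01224, next to ZNF91, fell from 24.9, 23.8, and 23.2 CPM to 6.33, 5.50, and 6.96 in MB468 (log2 -1.92, SE 0.09, adjusted p = 2.00e-22) and less in MB468res-R8, from 20.1, 18.2, and 18.7 to 11.6, 10.4, and 10.2 (log2 -0.83), a difference of 1.09 (SE 0.12, adjusted p = 3.22e-10). LINC00892, LINC00607, LINC00284, LINC00310, LINC01354, and LINC00963 fell in MB468 by 1.32 to 2.39 on the log2 scale. LINC00963, studied in prostate cancer, was the most abundant of these, with 18.6, 15.5, and 17.4 CPM at 0 h and 6.55, 7.30, and 6.91 at 12 h.

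In MB468res-R8 LINC00675 (TMEM238L) went from 97 counts in the 3 libraries at 0 h to 3 in those at 12 h, a ratio of 0.0292 (95% exact interval 0.00591 to 0.0878, counting error only; adjusted p = 1.84e-09). MB468, which had little of it at 0 h, held 0.0805, 0, and 0.111 CPM at 12 h. At 2 h LINC00675 was called higher than at 0 h in MB468 (log2 1.68, SE 0.54, adjusted p = 0.0264). LINC00284 (NRAD1) fell from 7.70, 7.67, and 8.504 CPM to 1.14, 1.001, and 0.996 in MB468res-R8 (log2 -2.92, SE 0.20, adjusted p = 4.56e-16) and to 2.55, 1.85, and 1.89 in MB468 (log2 -1.53, SE 0.17, adjusted p = 3.48e-10), a called difference of -1.39 (SE 0.27, adjusted p = 3.08e-05). LINC00607, LINC01569, LINC01151, LINC01508, LINC00886, and LINC00885 fell by 2.13 to 2.99 in MB468res-R8. LINC00885 was the most abundant of them, at 5.58, 6.49, and 5.34 CPM before and 1.38, 1.10, and 1.45 after.

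LINC00673 and LINC00346 were again below their 0 h level at 12 h. At 12 h LINC00673 held 57.0, 62.8, and 63.5 CPM in MB468 (log2 -0.58 from 0 h, adjusted p = 8.94e-11) and 50.9, 48.5, and 47.0 in MB468res-R8 (log2 -1.38, adjusted p = 2.75e-20), a called difference of -0.80 (SE 0.09, adjusted p = 4.87e-10). LINC00346 was at 4.38, 5.07, and 5.46 CPM in MB468 and 12.3, 12.0, and 11.9 in MB468res-R8, with log2 fold changes of -1.31 and -0.98 from 0 h. LINC00152 was not below 0 h at 12 h: it held 38.2, 39.0, and 36.9 CPM in MB468 (log2 0.04, adjusted p = 0.603) and 31.1, 30.1, and 30.7 in MB468res-R8 (log2 0.19, adjusted p = 0.0267).

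The difference between the responses at 12 h was called for 57 genes, 14 higher and 43 lower in MB468res-R8 (38% against 56.5% of all genes), or 17 and 26 with spike-in scaling. The higher side held 9.33% of LINC genes and 26.2% of all genes, and the lower 28.7% and 30.3%. With spike-in scaling 39.5% of the LINC genes' calls were higher, against 69.9% of all genes'. At least 2-fold differences were called for 34 of them (22.7% against 12.2%). Besides the genes above, LINC00639, LINC00938, LINC00630, LINC00892, LINC00310, and LINC01296 were on the higher side, and LINC00689, LINC01569, LINC00479, and LINC01023 on the lower. LINC00639 fell in MB468 (log2 -1.05, adjusted p = 1.74e-05): 2.13, 2.66, and 2.41 CPM became 0.966, 1.09, and 1.39 there, and 2.47, 2.26, and 2.07 became 2.20, 2.35, and 2.78 in MB468res-R8, a difference of 1.15 (SE 0.28, adjusted p = 6.04e-04). LINC01569 fell in MB468res-R8, with 1.62, 1.51, and 2.16 then 1.77, 1.19, and 1.36 CPM in MB468, and 1.85, 2.06, and 1.90 then 0.236, 0.2502, and 0.456 in MB468res-R8, a difference of -2.35 (SE 0.38, adjusted p = 1.72e-06). The calls of LINC00310 and LINC00892 were lost without any of 2 and 6 single libraries, at 0.963 to 1.199 and 0.65 to 0.90.

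**Figure D5:**
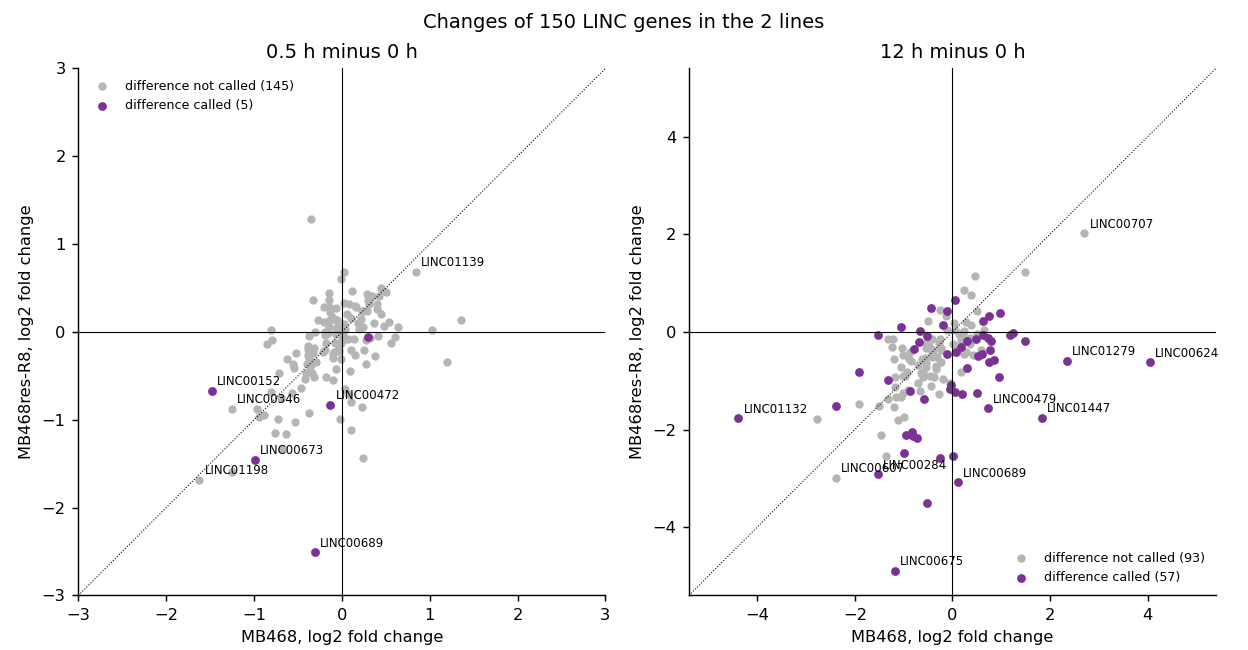
Each point is a LINC gene, with its log2 fold change from 0 h in MB468 on the horizontal axis and in MB468res-R8 on the vertical one, at 0.5 h (left) and 12 h (right); purple marks genes whose response differed between the lines at an adjusted p under 0.05. At 0.5 h 5 differences were called, with r = 0.526 (Pearson) and the same sign in both lines for 101 genes. At 12 h 57 were called, with LINC00624, LINC01447, and LINC01279 far to the right and LINC00675 and LINC00689 far below.

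At 12 h 42 LINC genes were lower in both lines (28%, against 18.1% of all genes) and 6 higher in both (4%, against 18%), with no library shared by these comparisons, and the log2 fold changes of the lines were correlated over the 150 genes with r = 0.45 (Pearson) and rho = 0.5 (Spearman), against r = 0.433 over all genes. Between the lines at 12 h, 40 LINC genes were higher and 59 lower in MB468res-R8 (66% called and 36% at least 2-fold, against 73.1% and 20.3% of all genes, of which 33.9% were higher and 39.2% lower), and the line differences at 0 h and 12 h, from separate libraries, had a Pearson r of 0.671. Of the 45 genes higher in MB468res-R8 at 0 h, 24 were higher (53.3%, against 62.7% of all genes higher at 0 h) and 8 lower (17.8%, against 18.5%) at 12 h. Of the 27 lower, 21 were lower (77.8%, against 66.9%) and 1 higher (3.70%, against 16.2%).

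How often a gene was called moved with its level, so the 124 LINC genes of 0.5 to 10 CPM and the 26 of at least 10 were set beside all genes of the same levels. At 0 h 42.7% of the lower band and 73.1% of the upper one differed between the lines, against 41.8% and 61.4% of all genes, and at 12 h 62.1% and 84.6%, against 59.7% and 82.5%. In MB468 15.3% and 57.7% were called at 0.5 h (20.2% and 42.6% of all genes), 6.45% and 23.1% at 2 h (8.85% and 21.0%), and 50% and 76.9% at 12 h (56.7% and 80.7%). In MB468res-R8 the shares were 17.7% and 53.8% at 0.5 h (20.1% and 42.2%), 0.806% and 11.5% at 2 h (1.73% and 5.89%), and 54% and 73.1% at 12 h (45.9% and 71.8%). In the lower band at 12 h in MB468res-R8, 8 were higher and 59 lower. For all genes of these bands neither directions nor 2-fold changes were counted. The shares higher, lower, or at least 2-fold given above are thus set against genes of any level. Of those, 9528 of 14741 averaged at least 10 CPM.

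Of 8 LINC genes listed as coding for known small proteins, 5 were expressed, and apart from LINC00675 they moved little. LINC00116 (MTLN, mitoregulin, a small protein of the inner mitochondrial membrane that favours fatty acid oxidation) stayed between 7.96 and 11.7 CPM in all 24 libraries and was called in 0 of the 11 comparisons. LINC00493 (SMIM26) was called once, higher in MB468 at 12 h (20.8, 20.9, and 21.4 then 25.3, 23.3, and 25.9 CPM, log2 0.24, adjusted p = 0.00466). LINC01420 (NBDY), a small protein of the mRNA decapping complex, fell in both lines at 12 h, from 38.6 ± 0.576 to 29.1 ± 2.86 CPM in MB468 (SD, n = 3; log2 -0.40, adjusted p = 6.34e-07) and from 45.1 ± 2.53 to 35.02 ± 1.14 in MB468res-R8 (log2 -0.36, adjusted p = 5.23e-06). LINC00998 (SMIM30) was higher at 0.5 h in both lines, by 0.29 and 0.24 (adjusted p = 0.00344 and 0.0203). At 12 h it was lower in MB468 (log2 -0.19, adjusted p = 0.0333) and was not called in MB468res-R8 (0.13), with a called difference of 0.32 (adjusted p = 0.0141), and at 12 h it was higher in MB468res-R8 than in MB468 (0.18, adjusted p = 0.0429). These 12 h calls were lost without MB468 0 h replicate 1 or 2 or 12 h replicate 3 (-0.18 to -0.16), without MB468res-R8 0 h replicate 2 (0.22), and without any of 4 single libraries (0.14 to 0.19).

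Of 25 LINC genes listed for roles in epithelial cancer cells or cAMP signalling, 13 were expressed. At 0.5 h 2 of them were higher and 5 lower in MB468, and 0 and 7 in MB468res-R8; at 12 h 4 were higher and 5 lower in MB468, and 3 and 7 in MB468res-R8. At 0.5 h these are 15.4% and 38.5% in MB468 (17.6% and 16.4% of all genes) and 0% and 53.8% in MB468res-R8 (17.4% and 16.3%), and at 12 h 30.8% and 38.5% in MB468 (36.1% and 34.7%) and 23.1% and 53.8% in MB468res-R8 (30.2% and 31.1%). The list was chosen with earlier results of these data known, and all genes were not matched for its levels. LINC01133 fell in both lines at 12 h, to 18.1 ± 0.539 CPM in MB468 (log2 -0.60, adjusted p = 1.01e-09) and 25.5 ± 0.337 in MB468res-R8 (log2 -0.82, adjusted p = 2.23e-13). LINC00662 fell in MB468res-R8 at 12 h, from 30.3, 31.1, and 32.7 CPM at 0 h to 12.9, 15.9, and 15.4 at 12 h, and stood at 32.5, 30.2, and 30.0 in MB468 at 12 h. LINC01578 (CHASERR), which holds down its neighbour CHD2, ran from 22.4 to 34.5 CPM over all libraries. It was higher in MB468 at 0.5 h (log2 0.22, adjusted p = 0.0295) and 12 h (0.38, adjusted p = 4.29e-05). In MB468res-R8 it was called at neither time (0.15 at both).

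Long noncoding genes that carry names rather than LINC numbers were set beside them: of 38 listed, 27 were tested. At 12 h 5 of these were higher and 13 lower in MB468, and 6 higher and 7 lower in MB468res-R8, with median log2 fold changes of -0.35 and -0.18. These are 18.5% and 48.1% in MB468 (36.1% and 34.7% of all genes), and 22.2% and 25.9% in MB468res-R8 (30.2% and 31.1%). This list too was chosen with earlier results known and was set against genes of any level. TUG1 fell in MB468 (log2 -0.97, adjusted p = 4.26e-23) and rose slightly in MB468res-R8 (0.17, adjusted p = 3.03e-04), whereas UCA1 and TINCR fell in both.

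The nearest protein-coding gene was found for each LINC gene. For the line difference at 0 h the log2 fold changes of the 150 genes and of their nearest coding genes had a Pearson r of 0.394, and 0.697 (Spearman 0.525, 16 of 27 with the same sign) over the 27 pairs that lie within 5000 bases without overlap. For the line difference at 12 h the same 27 pairs had r = 0.117, and the 13 overlapping pairs had r = -0.0858 at 0 h. At 12 h the values over all pairs were 0.116 in MB468 and 0.113 in MB468res-R8. These are correlations across genes, given without a test.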

How the data were processed

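The deposited counts are raw reads per gene: the authors aligned single-end reads with HISAT2 2.1.0 to a reference of GRCh38/hg38 plus the 92 spike-ins and counted them with featureCounts (Subread 1.5.3 in the submitters' processing notes). The authors' normalized table and their DESeq2 results (fold changes and p-values) were not used here. The analysis used R 4.3.3 and edgeR 4.0.16: spike-ins were left out, filterByExpr (minimum count 10, minimum total 15) kept 14741 genes with all 150 LINC genes among them, TMM factors scaled the libraries, and a robust quasi-likelihood fit with a mean per group gave 11 comparisons, with Benjamini-Hochberg adjustment over all genes. SE is the log2 fold change divided by the root of F. Calls are at an adjusted p under 0.05.

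LINC genes are named by rule: the largest called changes at 0 h and 12 h (up to 8 per direction, at least 1 CPM in the higher group, no overlap of libraries), the smallest p at 0.5 and 2 h (up to 4), the 8 most abundant, lists of 8 and 25 genes, and 3 on either side of the threshold. LINC00339, LINC00094, and LINC00176 are also named as genes called in both lines. The genes, lists, and tests were chosen with earlier results of these data known. On simulated counts for MB468res-R8 at 12 h (14404 genes) 83.3% of 2-fold changes and 21.2% of changes of 0.5 (log2) were called, 4.72% of calls were unchanged genes, and 0 were called in an unchanged contrast. The simulation gave every gene the same spread between libraries (dispersion 0.02) and changed no other group. Its changed genes were drawn over all levels, so these shares do not describe the LINC genes. Alternatives were DESeq2 1.42.0 (size factors and Wald test), spike-in totals, other filters and thresholds, fewer groups, a replicate block, counts thinned to the smallest library, and leaving out each library.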

Additional observations from a re-analysis of the deposited data

Results flagged for a closer look

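The response to Met-Hcy+ medium differed between the lines, by a test of the difference itself (edgeR's quasi-likelihood test, adjusted over all genes), for the genes that follow, given as the log2 fold change in MB468res-R8 minus that in MB468. At 0.5 h they were LINC00152 (0.81), LINC00472 (-0.70), LINC00673 (-0.46), LINC00662 (-0.36), and LINC00689 (-2.20). At 2 h they were LINC00346 (0.62) and LINC01089 (-0.99). With spike-in totals LINC00472 and LINC00673 lost their call (-0.43 and -0.20). The calls of LINC00662, LINC00689, and LINC01089 were lost without any of 8, 8, and 6 single libraries, and that of LINC00346 under 1 alternative.

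At 12 h the difference was positive for LINC01132 (2.63), LINC00310 (1.46), LINC00639 (1.15), LINC01224 (1.09), LINC00630 (0.93), LINC00892 (0.87), LINC00938 (0.68), and LINC01296 (0.61). It was negative for LINC00624 (-4.67), LINC00675 (-3.72), LINC01447 (-3.59), LINC00689 (-3.19), LINC01279 (-2.93), LINC01569 (-2.35), LINC00479 (-2.29), and LINC01023 (-1.87). LINC00310 and LINC00892 lost their call without any of 2 and 6 single libraries. LINC00624 passed the threshold of 0.5 CPM only through MB468 at 12 h. LINC00675 rests on few counts in MB468 and at 12 h in MB468res-R8, where leaving out single libraries moved its difference from -6.82 (without MB468res-R8 12 h replicate 1) to -3.12, and LINC00689 held at most 0.1 CPM in each MB468res-R8 library at 12 h.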

How the results depend on the processing

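The number of LINC genes called moved by over 1.5 times under these alternatives, and the cause was not tested unless the alternative is itself stricter. With spike-in totals it was 54 for MB468 at 2 h, 18 and 1 for MB468res-R8 at 0.5 and 2 h, and 1 and 7 for the differences between the lines at 0.5 and 2 h. With counts thinned to the smallest library the last of these were 2 and 1. With at least 10 counts in every library, where fewer genes are tested, it was 42 and 62 between the lines at 0 and 12 h, and 52 for MB468res-R8 at 12 h. At an adjusted p under 0.01 it was 20 and 8 for MB468 at 0.5 and 2 h, 22 and 2 for MB468res-R8, and 3 and 1 for the differences. With at least a 2-fold change it was 29 and 54 between the lines at 0 and 12 h, 6, 3, and 37 in MB468 at 0.5, 2, and 12 h, 11, 1, and 45 in MB468res-R8, and 1, 0, and 34 for the differences.

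Leaving out single libraries gave 9 to 13 calls for MB468 at 2 h, 2 to 4 for MB468res-R8 at 2 h, and 3 to 6 and 1 to 2 for the differences at 0.5 and 2 h. The 3 calls at 0.5 h came without MB468 0 h replicate 3, MB468 0.5 h replicate 1 or 2, MB468res-R8 0 h replicate 2, or MB468res-R8 0.5 h replicate 3. The other counts ran from 56 to 64 and 94 to 99 between the lines at 0 and 12 h, 26 to 32 at 0.5 h in either line, 76 to 85 and 74 to 82 at 12 h, and 47 to 59 for the difference at 12 h. Of 99 results for named genes, 73 kept their call under every alternative run and 26 lost it under at least 1, 17 of them with spike-in totals. LINC00152 in MB468 at 2 h turned to -0.15 with spike-in totals.

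In no comparison did all same-numbered libraries deviate together: the mean correlation ran from -0.144 to 0.275, and in none was every pair above 0.1. The highest mean was that of MB468res-R8 at 2 h against 0 h, where libraries of other numbers averaged -0.138. With the replicate block 66 LINC genes were called between the lines at 0 h, 82 in MB468 and 87 in MB468res-R8 at 12 h, and 56 for the difference at 12 h, and of the named results only LINC00630 in MB468res-R8 at 12 h lost its call (0.49). Depth limits the scarce genes: 116 of the 150 averaged at least 1 CPM, and the others rest on fewer counts. Leaving out the 4 genes that pass 0.5 CPM only with their highest group, chosen after seeing the data, moved no number of calls by over 1.5 times.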
